A study of Mus musculus with 6 samples.

Results

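The microglia identity genes are 9 genes that mark the microglia of the brain: Aif1, Cx3cr1, P2ry12, Tmem119, Csf1r, Trem2, Tyrobp, Itgam and Cd68. They were taken by gene symbol from the table of the whole series, which holds 16060 rows, and all 9 symbols were found. Itgam stands on a pair of rows, so the 9 symbols took up 10 rows. Each of the 9 genes was above 0 in all 6 libraries. The 9 genes were among the 13321 that passed a filter on low values and were tested, and the other row named Itgam did not pass. RNA of the hippocampus (HIPP) was sequenced from adult male C57BL/6 mice, with 3 libraries labelled Control and 3 labelled MA. Each library was taken as 1 mouse. Control mice received saline by intraperitoneal injection. MA mice received methamphetamine (MA) in escalating doses of 5, 10 and 15 mg/kg in weeks 1, 2 and 3, and HIPP was taken after behavioral tests on day 22. Mice given quercetin beside MA are not part of this comparison. Whole tissue was sequenced, so every value is an average over neurons, glia and vessel cells, and fewer microglia cannot be told apart from less RNA per microglial cell. The comparison asked whether the genes that define microglia were at another level in the HIPP after repeated MA.

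Microglia are the resident macrophages of the brain. They arise from yolk sac progenitors, renew themselves in place and depend on signals through the receptor Csf1r for their survival. At rest they survey the tissue with motile processes and carry receptors for nucleotides and for neuronal chemokine, such as P2ry12 and Cx3cr1. When they respond to injury or disease they commonly lower such resting genes and raise genes of phagocytosis and lysosomes, among them Cd68 and the Trem2 to Tyrobp pathway. Aif1 encodes Iba1, the cytoplasmic protein by which microglia are most often stained.

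Each level is given on the scale of the table, read as log2 of RPKM plus 1, where RPKM is a read count divided by gene length and by the mapped reads of the library. Levels in RPKM were calculated back from it. A difference is the MA mean minus the Control mean on this log2 scale, and it understates the change of a low gene. The adjusted p-values come from limma with Benjamini-Hochberg adjustment over all 13321 tested genes. Single genes were also given an exact permutation test, for which 0.1 is the smallest two-sided p with 3 libraries a group. No text used here says how the libraries relate, and each was taken as 1 mouse, so p-values measure the spread between these libraries.

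The direction of every difference is that of the library labels. The immediate early genes Arc, Fos, Egr1 and Nr4a1, which neurons switch on with activity, were lower in each library labelled MA than in each labelled Control, by 1.80 for Arc and by 1.61 for Fos on the log2 scale. The paper reports these genes as raised by MA, both in its RNA sequencing and by qPCR. Whether the labels or the paper's direction is right was not settled here. If the group labels were exchanged, every difference given here would change its sign. The libraries also differed in ways that no label names. In limma's estimate of library quality the library labelled MA replicate 3 had a weight of 0.194, against 0.937 to 2.45 for the other 5. In MA replicate 3 the 3326 genes with the shortest exons in total had a median deviation of 0.103 from their means over the libraries and the 3326 with the longest one of -0.123, on the log2 scale. By GC content, the share of G and C bases, the lowest 3326 genes had -0.108 in this library and the highest 3326 had 0.0967. Transcripts of the choroid plexus, the epithelium that secretes cerebrospinal fluid, summed to between 102 and 479 RPKM in Control and to between 1940 and 5327 RPKM in MA. Over all tested genes 35 passed an adjusted p of 0.05 (0.263%; limma), of which 22 were higher (0.165%) and 13 lower (0.0976%) in MA.

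None of the 9 genes passed the test between the groups. The mean was lower in MA for 7 of them (Aif1, P2ry12, Tyrobp, Trem2, Itgam, Tmem119 and Cx3cr1) and higher for Csf1r and Cd68. The differences ran from -0.43 for Aif1 to 0.13 for Cd68, with a median of -0.13, where the median over all tested genes was -0.010 and 52.7% of all tested genes had a lower mean in MA. The count at an unadjusted p under 0.05 was also 0 of 9 (limma), where 10.4% of all tested genes were under it. The groups did not overlap for Tmem119 alone, in the lower direction, as was so for 10.2% of all tested genes, while 7.32% did not overlap in the higher direction. The summed level of the 9 genes was 136.7, 152.1 and 139.4 RPKM in Control replicates 1 to 3. In MA replicates 1 to 3 it was 129.1, 120.1 and 136.5 RPKM. The ranges of these sums did not overlap, but Control replicate 1 and MA replicate 3 lay next to each other at the boundary. Tyrobp made up 32.0% to 39.0% of the sum in each library.

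**Figure D1:**
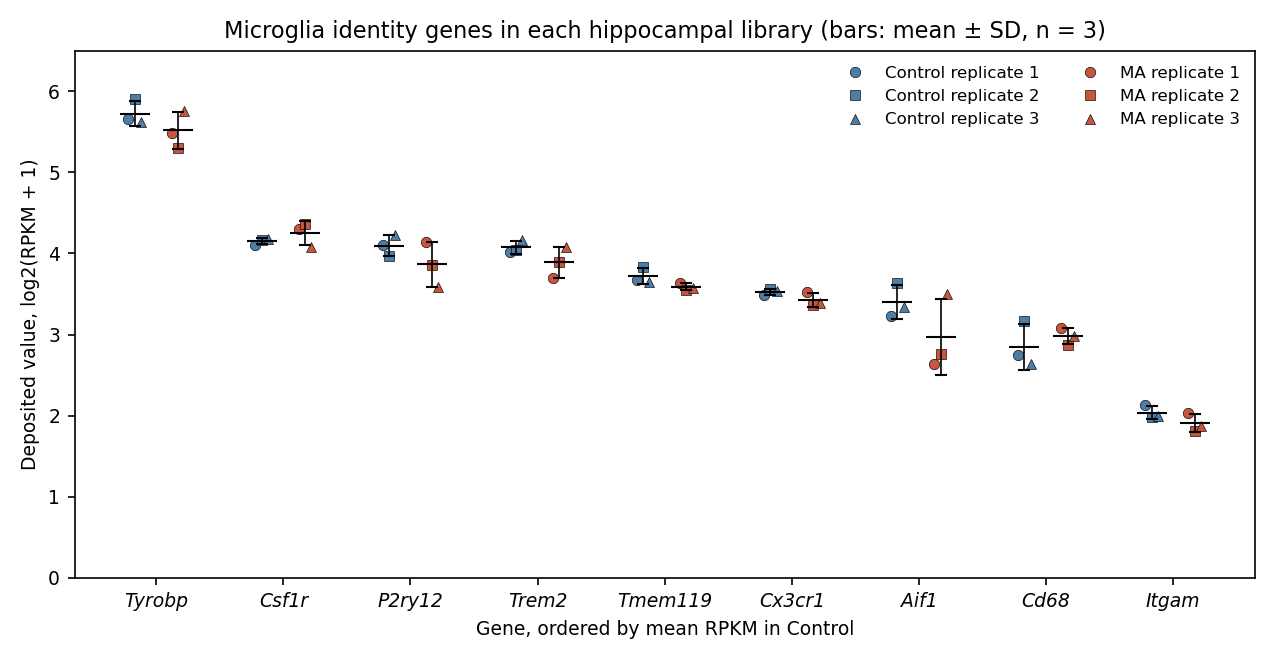
The level of each of the 9 genes, in log2(RPKM + 1), in the 3 Control and 3 MA libraries, with genes ordered by their mean RPKM in Control; the long bars are group means and the whiskers 1 SD. Tyrobp stands highest and Itgam lowest in both groups, and the points of the groups overlap for every gene but Tmem119.

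The order of levels was almost the same in both groups. In Control, Tyrobp was highest at 52.1 ± 5.73 RPKM (SD, n = 3), and the next gene, Csf1r, was at 16.8 ± 0.451 RPKM. Csf1r, P2ry12 (16.2 ± 1.53 RPKM) and Trem2 (15.9 ± 0.963 RPKM) overlapped with their neighbours in the order, so these 3 could not be ranked. Tmem119 followed at 12.2 ± 0.943 RPKM, above the range of Cx3cr1 (10.5 ± 0.299 RPKM), whose range overlapped with that of Aif1 (9.64 ± 1.59 RPKM). Cd68 (6.30 ± 1.48 RPKM) and Itgam (3.11 ± 0.221 RPKM) were the lowest. In MA only P2ry12 and Trem2 exchanged places, at 13.8 ± 2.82 and 13.9 ± 1.97 RPKM, less than their spread apart. Aif1 lay at percentile 57.3 of all rows of the table by mean level, Tyrobp at 89.2 and Itgam at 37.2.

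The resting receptors and surface proteins come first. P2ry12, the ADP receptor that directs microglial processes to sites of injury, was at 4.10, 3.97 and 4.22 in Control and at 4.14, 3.86 and 3.59 in MA. MA replicate 3 was the lowest of the 6 and MA replicate 1 lay between the Control libraries. The difference was -0.23 ± 0.15 (SE), with a 95% interval from -0.58 to 0.12 (limma, adjusted p = 0.660; exact permutation test, two-sided, p = 0.3). The difference rested in part on MA replicate 3: it was -0.093 without it, whereas it was -0.37 without MA replicate 1. P2ry12 shares 9 exonic bases with Med12l on the opposite strand, and whether the counting used strand is not given in the sources used here.

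Tmem119, a membrane protein by which microglia are told from blood-derived macrophages, was at 3.68, 3.84 and 3.65 in Control and at 3.64, 3.55 and 3.58 in MA. All 3 MA libraries lay below all 3 Control libraries, with MA replicate 1 only just under Control replicate 3. The difference was -0.13 ± 0.091, with an interval from -0.35 to 0.080 (limma, adjusted p = 0.679; exact permutation test, p = 0.1, the smallest possible). Cx3cr1, the receptor for the neuronal chemokine Cx3cl1, was at 3.49, 3.56 and 3.54 in Control and at 3.52, 3.37 and 3.39 in MA. MA replicates 2 and 3 were below the Control range and MA replicate 1 was inside it. The difference was -0.099 ± 0.088, with an interval from -0.30 to 0.11 (limma, adjusted p = 0.753). These were the steadiest of the 9: the SD within groups of Cx3cr1 stood at percentile 8.33 and that of Tmem119 at percentile 14.1 of all tested genes.

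Csf1r, the receptor tyrosine kinase for Csf1 and Il34 on which microglia depend, went the other way. Its level was 4.11, 4.17 and 4.18 in Control and 4.31, 4.36 and 4.08 in MA. MA replicates 1 and 2 were the highest of the 6 and MA replicate 3 was the lowest. The difference was 0.10 ± 0.099, with an interval from -0.13 to 0.33 (limma, adjusted p = 0.781; exact permutation test, p = 0.4). Csf1r shares 873 exonic bases with Hmgxb3 on the opposite strand, which differed by -0.058 between the groups (limma, adjusted p = 0.870), so reads of the shared stretch cannot be assigned to either gene if strand was not used.

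Trem2, a receptor for lipids and cell debris that drives phagocytosis, signals through its adaptor Tyrobp (DAP12). Trem2 was at 4.02, 4.04 and 4.17 in Control and at 3.70, 3.89 and 4.08 in MA. MA replicates 1 and 2 were lower than every Control library and MA replicate 3 was among them. The difference was -0.18 ± 0.12, with an interval from -0.46 to 0.087 (limma, adjusted p = 0.648). Tyrobp was at 5.66, 5.90 and 5.62 in Control and at 5.49, 5.30 and 5.76 in MA. The same pattern held, with MA replicates 1 and 2 below the Control range and MA replicate 3 inside it. The difference was -0.21 ± 0.14, with an interval from -0.53 to 0.11 (limma, adjusted p = 0.658). Without MA replicate 3 the differences were -0.28 for Trem2 and -0.33 for Tyrobp, with adjusted p = 0.146 and 0.138 (limma). With 1 library left out they were nearest to 0 at -0.088 for Trem2 without MA replicate 1 and -0.10 for Tyrobp without MA replicate 2.

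Itgam encodes CD11b, the alpha chain of complement receptor 3, which takes up complement-tagged material. It was at 2.13, 1.99 and 2.002 in Control and at 2.03, 1.81 and 1.87 in MA. MA replicates 2 and 3 were the lowest of the 6, and MA replicate 1 lay between Control libraries. The difference was -0.13 ± 0.11, with an interval from -0.38 to 0.12 (limma, adjusted p = 0.727). The other row with the symbol Itgam carries the identifier ENSMUSG00000108596, named Gm49368 in GENCODE release M21, and shares 3450 exonic bases with Itgam on the same strand. It was listed at 0 in 4 libraries, at 0.0228 in MA replicate 1 and at 0.000206 in MA replicate 3, the lowest value of that library. Reads of the shared exons can belong to either gene, so the level of Itgam is uncertain. Cd68, a lysosomal membrane glycoprotein of phagocytes, was at 2.75, 3.17 and 2.64 in Control and at 3.08, 2.88 and 2.99 in MA. All MA values were within the Control range. The difference was 0.13 ± 0.15, with an interval from -0.22 to 0.49 (limma, adjusted p = 0.826).

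Aif1, the gene of Iba1, had the widest difference and the widest spread of the 9. The paper stained for the Iba1 protein and reports that MA promoted the proliferation of microglia. That is a measure of stained cells, while the values here are RNA of whole tissue. Its level was 3.22, 3.63 and 3.34 in Control and 2.64, 2.76 and 3.50 in MA, which is 9.64 ± 1.59 RPKM against 7.11 ± 2.81 RPKM. MA replicates 1 and 2 were well below every Control library, and MA replicate 3 was the second highest of all 6. The difference was -0.43 ± 0.23, with an interval from -0.98 to 0.11 (limma, adjusted p = 0.582; exact permutation test, p = 0.3), and the SD within groups stood at percentile 93.4 of all tested genes. The test result depended on how the libraries were weighted. With limma's sample quality weights, which changed the weight of all 6 libraries and gave MA replicate 3 the least, the difference was -0.68 and Aif1 passed at an adjusted p = 0.0456, while 586 of all 13321 genes passed too. Without MA replicate 3 the difference was -0.70 and the adjusted p = 0.0580, with 257 genes called. Without MA replicate 1 it was -0.27. After the values had been corrected for the length and GC trends of each library the difference was again -0.43 (limma, adjusted p = 0.443).

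**Figure D2:**
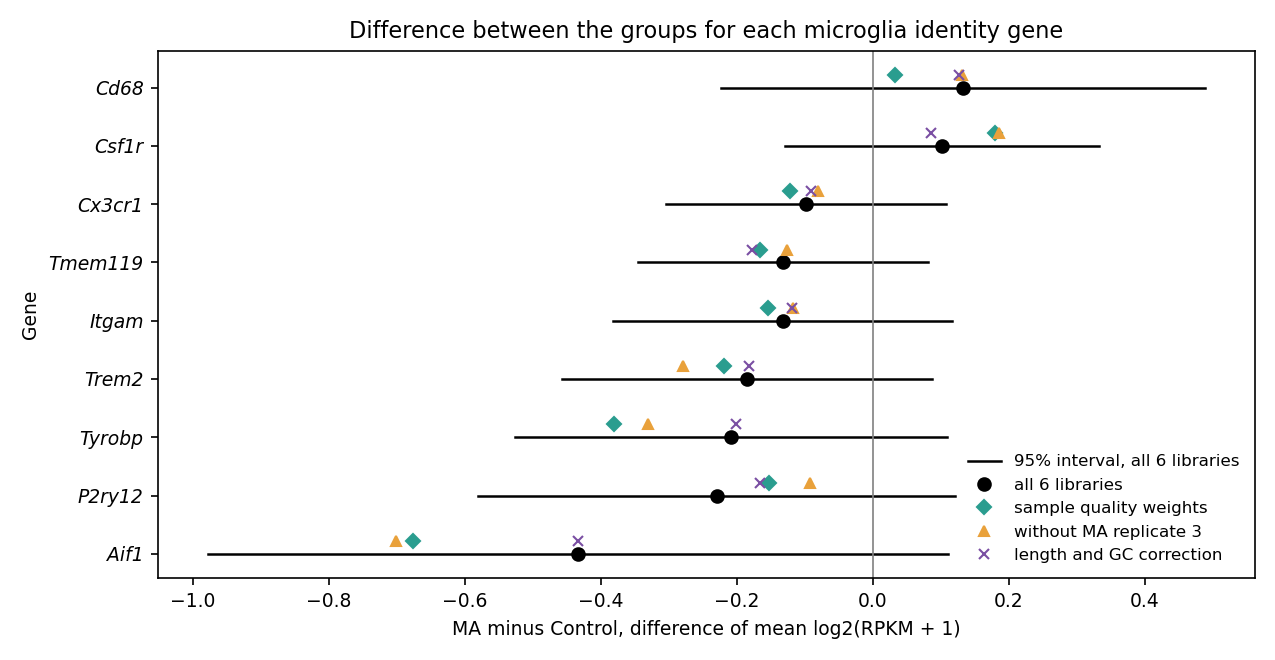
The difference of mean log2(RPKM + 1), MA minus Control, for each gene, from all 6 libraries with its 95% interval (black), with sample quality weights (diamonds), without MA replicate 3 (triangles) and after a length and GC correction (crosses). Every interval spans 0, no gene changes sign, and Aif1 moves furthest, from -0.43 to -0.68 and -0.70.

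The 9 genes ranked the libraries in different orders. Control replicate 2 held the highest of the 6 values for 5 of the 9 genes and MA replicate 2 the lowest for 4, and only 1 gene, Csf1r, was above its own mean in MA replicate 2. In MA replicate 3, 4 genes were above their mean (Tyrobp, Trem2, Aif1 and Cd68) and P2ry12 was 0.39 below it (a deviation of -0.39). Resting receptors were set against phagocytic genes as the mean of P2ry12, Tmem119 and Cx3cr1 minus the mean of Cd68, Trem2 and Tyrobp on the log2 scale. This balance was -0.39, -0.58 and -0.34 in Control and -0.32, -0.43 and -0.76 in MA. The groups overlapped, and MA replicate 3 had the lowest balance of the 6. P2ry12 has a low GC content (38.6%), and Tyrobp (667 exonic bases) and Cd68 (1257) are short, but so are P2ry12 (2546) and Tmem119 (2315). Whether the length and GC trends of MA replicate 3 shaped its balance was not tested. Aif1 relative to the mean of all 9 genes was -0.46, -0.17 and -0.36 in Control and -0.98, -0.77 and -0.15 in MA, so MA replicates 1 and 2 had less Aif1 for their level of microglial transcripts than any other library, and MA replicate 3 had the most.

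**Figure D3:**
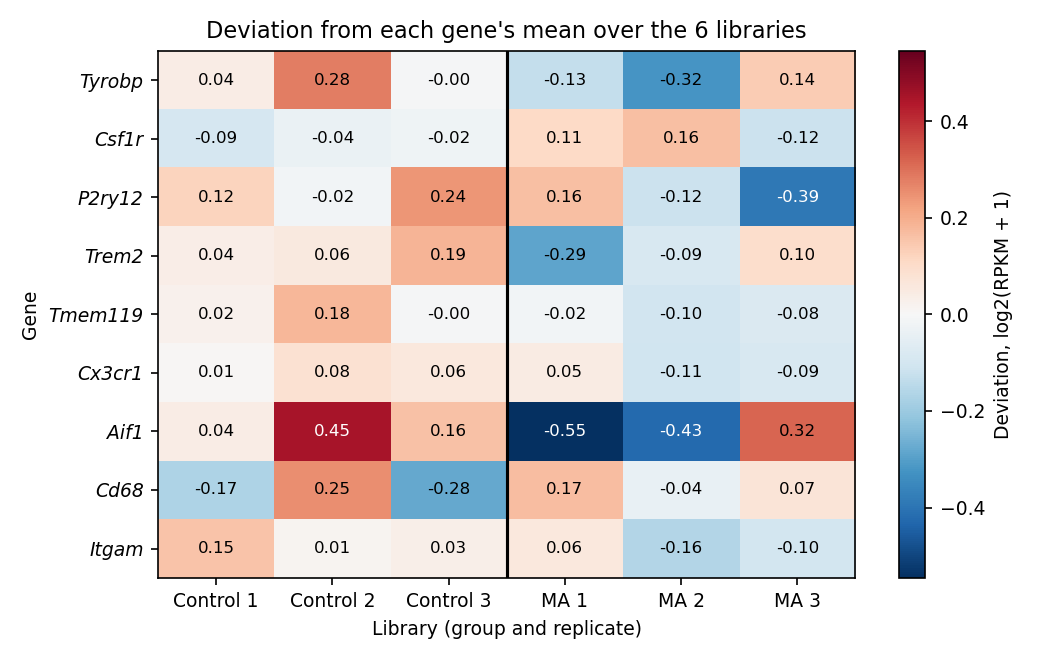
Each cell is the deviation of 1 gene (rows) in 1 library (columns) from that gene's mean over the 6 libraries, in log2(RPKM + 1), with red above and blue below the mean. Aif1 ranges from -0.55 in MA replicate 1 to 0.45 in Control replicate 2, and MA replicate 3 is above the mean for Aif1 but at -0.39 for P2ry12.

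PU.1, encoded by Spi1, is the transcription factor on which the macrophage lineage depends, and it binds a purine-rich element with the core GAGGAA. Spi1 itself, which was looked up after the other values were seen, differed by 0.13 ± 0.18 between the groups (limma, adjusted p = 0.856). The 250 bases before the transcription start were searched for GAGGAA and its reverse complement TTCCTC in the RefSeq promoters of GRCm38.p6, where 6 of the 9 genes were matched by symbol. The core was found for Aif1, Trem2, Itgam and Cd68 and was not found in this window for Cx3cr1 and P2ry12. Of all 32851 promoters searched, 23.3% held it. The 4 sequences that hold it are shown 5′ to 3′ on the strand of the gene, with matches in capitals. They place the core in the promoters of Aif1 and of 3 genes of phagocytosis.
Aif1, chr17:35176053-35176302, minus strand: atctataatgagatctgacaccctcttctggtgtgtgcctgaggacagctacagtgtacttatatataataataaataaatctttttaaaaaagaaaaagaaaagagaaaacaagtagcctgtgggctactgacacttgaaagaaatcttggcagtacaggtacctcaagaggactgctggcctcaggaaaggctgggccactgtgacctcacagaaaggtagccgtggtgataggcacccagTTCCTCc
Trem2, chr17:48346151-48346400, plus strand: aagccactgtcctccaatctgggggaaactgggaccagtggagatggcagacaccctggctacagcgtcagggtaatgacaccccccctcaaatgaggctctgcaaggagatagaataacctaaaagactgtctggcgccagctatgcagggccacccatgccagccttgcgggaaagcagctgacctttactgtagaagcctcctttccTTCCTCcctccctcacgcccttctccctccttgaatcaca
Itgam, chr7:128062390-128062639, plus strand: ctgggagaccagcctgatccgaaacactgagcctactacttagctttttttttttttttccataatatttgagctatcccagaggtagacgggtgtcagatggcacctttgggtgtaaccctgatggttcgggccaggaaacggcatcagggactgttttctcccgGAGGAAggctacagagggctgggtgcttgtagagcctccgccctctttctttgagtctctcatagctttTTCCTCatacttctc
Cd68, chr11:69666171-69666420, minus strand: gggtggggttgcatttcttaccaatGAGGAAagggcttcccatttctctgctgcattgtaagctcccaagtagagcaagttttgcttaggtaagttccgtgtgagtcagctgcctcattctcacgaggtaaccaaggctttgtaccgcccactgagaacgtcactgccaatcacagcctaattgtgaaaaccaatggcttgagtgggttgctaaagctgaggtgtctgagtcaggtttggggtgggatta
The match began 7 bases before the start in Aif1 (position -7), at -40 in Trem2, at -84 and -15 in Itgam and at -225 in Cd68, where -1 is the base next to the start. The start of Aif1 differs between annotations: GENCODE places the gene at chr17:35170991-35176068, so the first bases upstream of the RefSeq start lie inside its first exon there. The match is a match of letters, and binding was not measured. A link between the core and the differences between the groups was not tested. The 4 genes differed between the groups by -0.43, -0.18, -0.13 and 0.13 in the order printed, so the genes with the core took both directions, none of them past the test.

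Other genes of resting microglia split almost evenly between the directions. Of 26 such genes 25 were tested, 13 were lower and 12 higher in MA, 0 passed the adjusted test and 2 were under an unadjusted p of 0.05 (limma), with a median difference of -0.0013. Siglech, a sialic acid lectin of microglia, was 2.94, 3.11 and 3.01 in Control and 2.83, 2.87 and 2.62 in MA, so its groups did not overlap (-0.25 ± 0.11; limma, adjusted p = 0.490). Ly86, which pairs with a Toll-like receptor relative on myeloid cells, had the other lowest difference at -0.24 (limma, adjusted p = 0.598). The highest were Ltc4s, which makes leukotriene C4, at 0.72 (limma, adjusted p = 0.605), with 4.36 in MA replicate 3 against 2.44 to 3.35 elsewhere, and Sparc, a matrix protein that vessels also make, at 0.49 (limma, adjusted p = 0.495). Of 46 genes shared by myeloid cells 38 were tested, and 23 were lower and 15 higher with a median of -0.020 and 0 called (2 under an unadjusted p of 0.05). Cd52, a small glycoprotein of leukocytes, differed by -0.53 (limma, adjusted p = 0.467) and Tlr7, an RNA sensor, by -0.33, where Control replicate 2 stood at 2.11 and the others at 0.50 to 0.88. Inpp5d, the phosphatase SHIP1 that restrains Trem2 signalling, differed by 0.32, with every MA library above every Control library (limma, adjusted p = 0.410), and Ptpn6, the phosphatase SHP-1, by 0.18.

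The ligands and partners of the 9 genes were also compared. Of 36 genes 33 were tested, 19 were lower and 14 higher, with a median of -0.023, 0 called and 5 under an unadjusted p of 0.05 (limma). Il34 was at 5.28, 5.46 and 5.01 in Control and 5.18, 5.19 and 5.33 in MA, and it stood far above the other ligand of Csf1r, Csf1, which was at 2.50 to 2.82 in Control and 2.55 to 2.73 in MA. The differences were -0.016 for Il34 and -0.026 for Csf1. Cx3cl1, the membrane-bound neuronal ligand of Cx3cr1, was at 7.34, 7.27 and 7.38 in Control and at 7.10, 7.21 and 6.96 in MA. Each MA library was below each Control library, and the difference was -0.24 ± 0.086 (limma, adjusted p = 0.409). Itgb2, the beta chain that pairs with Itgam, differed by 0.12 and Hcst (DAP10), the other adaptor of Trem2, by -0.29, both with overlap. Syk, the kinase that Tyrobp recruits, was at 1.15, 1.09 and 0.91 in Control and at 0.63, 0.63 and 0.78 in MA. The groups did not overlap, at a difference of -0.37 ± 0.12 (limma, adjusted p = 0.350). Itgav, an integrin chain that activates TGF-beta, came nearest to the threshold of all genes in the microglial and partner lists. It was at 3.89, 3.99 and 3.85 in Control and at 3.31, 3.35 and 3.22 in MA, a difference of -0.62 ± 0.088 that just missed it (limma, adjusted p = 0.0570). Tgfbr2, a TGF-beta receptor chain, was higher at 0.49 (limma, adjusted p = 0.371). Entpd1, which breaks down extracellular ATP and ADP, had a difference of 0.37 that rested on MA replicate 1, at 3.97 against 1.76 to 2.21 in the other 5 libraries.

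Genes of activated microglia gave no called gene either. Of 34 such genes 22 were tested, 11 lower and 11 higher, with a median of -0.0045 and 4 under an unadjusted p of 0.05 (limma). Timp2, an inhibitor of matrix proteases that many brain cells make, was at 4.66, 5.28 and 5.54 in Control and at 6.35, 6.09 and 5.34 in MA, a difference of 0.77 (limma, adjusted p = 0.442). Spp1 (osteopontin) differed by 0.54 (limma, adjusted p = 0.612), Fabp5, a lipid-binding protein, by -0.23 with every MA library below every Control library (limma, adjusted p = 0.390), and Lpl, a lipase, by -0.15. Some of the genes that are defining for disease-associated microglia or for inflammation were under the filter. Clec7a was at no more than 0.42, Cst7 0.41, Itgax 0.075, Il1b 0.21 and Il6 0.16 in any library, on the log2 scale. These genes were not tested. Il1b, which encodes an inflammatory cytokine, was at 0.063, 0.052 and 0.057 in Control and at 0.12, 0.21 and 0.082 in MA, so each MA library was above each Control library, at levels close to 0. Il6 was at 0.099, 0 and 0.16 in Control and at 0, 0 and 0.000206 in MA, the last being the lowest value of MA replicate 3. By qPCR the paper reports Il1b, Il6 and Tnf as raised by MA in HIPP. The symbol Tnf was not found among the rows of the series. All 20 lysosomal genes were tested, 8 were lower and 12 higher with a median of 0.060 and 0 called (3 under an unadjusted p of 0.05). Naglu (0.42; limma, adjusted p = 0.264) and Lamp2 (0.34; limma, adjusted p = 0.345), a lysosomal enzyme and a lysosomal membrane protein as Cd68 is, were higher in every MA library than in every Control library. Lipa, the acid lipase, and Hexa, a hexosaminidase chain, had the lowest differences at -0.15 and -0.14, and Lipa was lower in every MA library than in every Control library.

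Cell cycle genes were followed because microglia multiply when they are activated, although other dividing cells of the HIPP carry the same transcripts. Of 26 genes 17 were tested, 15 were lower and 2 higher in MA, with a median of -0.18, 0 called and 4 under an unadjusted p of 0.05 (limma). Ccnb2, a cyclin of mitosis, was at 0.65, 0.92 and 0.76 in Control and at 0.24, 0.33 and 0.35 in MA, a difference of -0.47 ± 0.12 without overlap (limma, adjusted p = 0.245). It is a low gene, and only its Control libraries reached the filter of 0.5 RPKM. Its lack of overlap was therefore partly set by the filter. Ube2c, a ubiquitin-conjugating enzyme of mitosis, differed by -0.41 (limma, adjusted p = 0.450). The highest were Mcm7, a replication helicase subunit, at 0.095 and Tyms, which makes thymidylate, at 0.0067. Mki67, Top2a, Cdk1 and Ccnb1 were under the filter and not tested. Mki67, a marker of dividing cells, was at 0.28, 0.24 and 0.33 in Control and at 0.22, 0.21 and 0.24 in MA. Each MA library was below each Control library for Mki67, whereas the groups overlapped for Top2a, Cdk1 and Ccnb1. Top2a was at 0.94, 0.54 and 0.55 in Control and at 0.23, 0.43 and 0.72 in MA. Cdk1 was at 0.47, 0.50 and 0.13 in Control and at 0.80, 0.14 and 0.53 in MA. Ccnb1 was at 0.29, 0.36 and 0.43 in Control and at 0.37, 0.34 and 0.60 in MA.

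**Figure D4:**
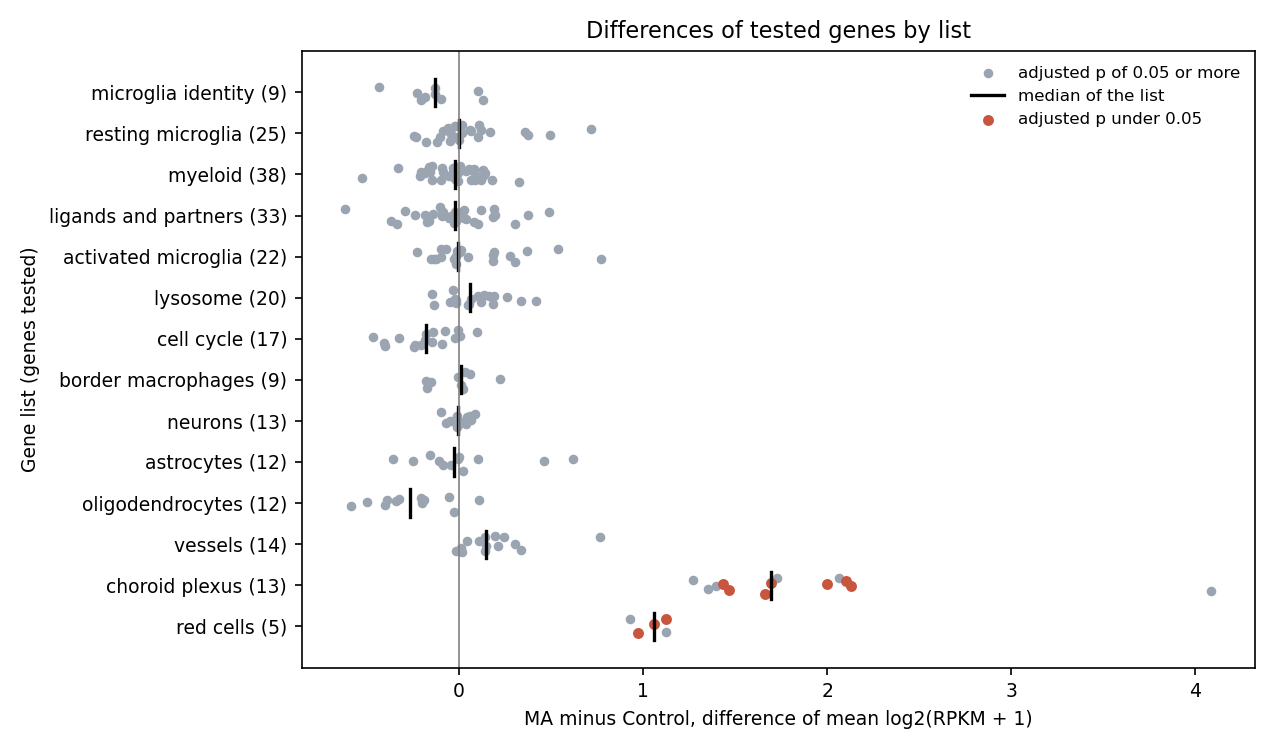
Each point is the difference of mean log2(RPKM + 1), MA minus Control, of 1 tested gene, in rows by gene list with the number of tested genes in brackets; black bars are list medians and red points are genes with an adjusted p under 0.05 (limma). The microglial, myeloid, partner, activation and lysosome lists centre near 0, the 9 identity genes have a median of -0.13, and red points are seen only in the choroid plexus and red cell rows.

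Markers of other cells that share or accompany these transcripts were read in the same libraries. Border macrophages, which lie in the meninges and along vessels and also carry Csf1r, Aif1 and Cd68, had 9 of 15 markers tested, 4 lower and 5 higher with a median of 0.0088, and their markers summed to between 20.5 and 22.1 RPKM in Control and between 18.3 and 23.6 RPKM in MA. Blood leukocyte markers were nearly absent: 3 of 16 were tested, and the sum was 4.03 to 6.88 RPKM in Control and 3.25 to 12.4 RPKM in MA, with 12.4 in MA replicate 3. No marker of either list was at 0 in every library. Red cell transcripts summed to between 1599 and 2024 RPKM in Control and between 3319 and 4378 RPKM in MA, with 3 of 5 tested genes called (Hbb-bs, Hba-a1 and Hba-a2). All 13 choroid plexus genes were higher in MA and 7 were called, Cldn2, Aqp1 and Enpp2 with the smallest p. Control replicates 1 and 2 were under the filter of 0.5 RPKM for Cldn2 and Aqp1, so these genes passed it only with their MA libraries. Oligodendrocyte markers were lower in 11 of 12 (median -0.26), vessel markers higher in 13 of 14 (median 0.15), astrocyte markers lower in 8 of 12 (median -0.025) and neuronal markers lower in 7 of 13 (median -0.0079), with 0 called in each and 1, 2, 2 and 0 under an unadjusted p of 0.05 (limma). Precursors of oligodendrocytes had 4 of 8 lower (median 0.0021). A list of 8 genes of hippocampal neurons, written after the data were seen to check the tissue label, was present in every library, summed to between 258 and 340.2 RPKM in Control and between 239 and 260.2 RPKM in MA, and was lower in 8 of 8 (median -0.15). The part of choroid plexus, blood or vessel RNA in the lower means of the 7 identity genes was not tested.

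The genes most like the 9 across the 6 libraries came from outside the microglial lists. The 9 profiles were each centred and divided by their SD and averaged, and the 5 tested genes outside the 9 with the highest Pearson correlation to this mean profile were Rhobtb3 (r = 0.998, Spearman's rho = 1), Plekhh1 (r = 0.997, rho = 0.943), Zfp711 (r = 0.996, rho = 1), Mcm2 (r = 0.984, rho = 0.943) and Ufsp1 (r = 0.983, rho = 0.943). None of the 20 genes with the highest correlation was in a microglial list. Among the 9 themselves, Tmem119 (r = 0.952) and Cx3cr1 (r = 0.909) followed the mean profile that they are part of, Tyrobp (r = 0.753), Itgam (r = 0.644), Aif1 (r = 0.579) and P2ry12 (r = 0.470) less so, Trem2 (r = 0.2999) and Cd68 (r = 0.208) least among those with a positive r, and Csf1r ran against it (r = -0.43). The 6 libraries include both groups and the highest correlations were picked from 13321 genes, so these values are a description.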

How the data were processed

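Hippocampal RNA of Control and MA mice was sequenced, with 3 libraries a group. The authors deposited 1 table, named as RPKM, whose values were read as log2 of RPKM plus 1, since they lie on a log scale with 1 highest value (12.3) shared by all libraries and start at 0 in 5 libraries and at 0.000206 in MA replicate 3; neither the log transform nor the scaling between libraries is described. The paper names Hisat2 and featureCounts, whereas the submitters' processing notes name Bowtie 0.12.2 and the builds mm8 and mm9. Library kits also differ between labels and paper. Read totals are unknown, so no counting interval is given.

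Genes that reached 0.5 RPKM after back-transformation in 3 or more libraries were tested with limma 3.58.1 in R 4.3.3 (lmFit, eBayes with trend, no covariate), which was tested on simulated data. The 9 genes and all lists were chosen with earlier results of these data known. From each microglial, partner, activation, lysosome and cell cycle list the 2 highest and 2 lowest differences were named, with direct partners, the 5 most similar profiles and, of other cell types, at most 3 called genes. Arc, Fos, Egr1, Nr4a1, Spi1, Hmgxb3, Med12l and the genes under the filter were chosen after their values were seen. Exonic overlaps and lengths came from GENCODE M21 on GRCm38 (15987 of 16031 identifiers found). Replicate numbers come from the labels, and no text pairs them. Alternatives were another offset, other filters and scalings, no trend, sample quality weights, a replicate block, each library left out and, added after the data were seen, a length and GC correction.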

Additional observations from a re-analysis of the deposited data

How the results depend on the processing

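All 9 genes kept their direction under every alternative that tested them (Itgam was not tested at a minimum mean of 5), and 8 of the 9 passed the adjusted test under none. The exception was Aif1 with sample quality weights (-0.68; limma, adjusted p = 0.0456). At an unadjusted p under 0.05 (limma) stood 4 of 9 (Aif1, Csf1r, Trem2, Tyrobp) with these weights and also without MA replicate 3. Of all 13321 tested genes 3504 and 3103 stood there. The count was 2 (Aif1, Tyrobp) with the length and GC correction and 1 (Aif1) with the replicate block added. It was 1 (P2ry12) without MA replicate 1 and 0 under the others. Leaving out 1 library in turn, the differences ran from -0.70 to -0.27 for Aif1, -0.15 to -0.070 for Cx3cr1, -0.37 to -0.093 for P2ry12, -0.17 to -0.075 for Tmem119, 0.045 to 0.19 for Csf1r, -0.28 to -0.088 for Trem2, -0.33 to -0.10 for Tyrobp, -0.19 to -0.087 for Itgam and 0.025 to 0.29 for Cd68, and their median from -0.16 to -0.10. The number of genes called among all tested was 35, and it was 20 with a minimum mean of 5, 3 with no filter and 586 with sample quality weights (limma). Leaving out 1 library gave 0 to 257: 3 without Control replicate 1, 0 without Control replicate 2, Control replicate 3 or MA replicate 2, 15 without MA replicate 1 and 257 without MA replicate 3. Where it gave 0, between 911 and 1031 genes were under an unadjusted p of 0.05. The cause of these shifts was not tested.

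When the replicate number entered as a block, 15 genes were called, and 8 with the block and the length and GC correction together, against 31 with that correction alone. Across genes, libraries with the same number had deviations that correlated at -0.20, -0.24 and -0.34. With only 3 such pairs, these values cannot decide whether mice with the same number shared more than that number. The block changed no call among the 9 genes. With 3 libraries a group and unknown depth, differences of the size seen for the 9 genes could not be told from 0.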
